A study of Mus musculus with 10 samples.

Results

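The genes described here are 47 genes of fatty acid oxidation and of the PPAR axis, chosen by name as the enzymes, carriers, receptors and target genes of this pathway. They were chosen with earlier results of these data known, so counts over the list describe it and do not test it. Of the 47, 43 were measured under their symbol among 19505 genes on the arrays, each by a single probe set. Ppard, Acsl1, Acsl3 and Etfb were not analysed here. The arrays were hybridised with RNA from BALB/c small intestine organoids, cultures of intestinal epithelium grown in Matrigel. All organoids received mouse TNF at 20 ng/ml, made as a recombinant protein, and were kept with it for 48 h. In the vehicle group (5 arrays) the TNF was given with 2.625 mM PEG, and in the pegtarazimod group (5 arrays) with pegtarazimod, a peptide joined to PEG, at 5 mg/ml. Every value below was therefore measured in the presence of TNF, and the comparison addresses which transcripts differed when pegtarazimod was present. The series describes the samples as biological replicates, but what differed between them is not stated in the sources used here, so the p-values measure the spread between these samples.

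Fatty acids enter a cell through transport proteins, are activated to acyl-CoA by synthetases and cross into mitochondria as acylcarnitines. There, repeated rounds of dehydrogenation, hydration, a further dehydrogenation and thiolysis shorten the chain, and electrons pass through the electron transfer flavoprotein to the respiratory chain. Very long and branched chains are first shortened in peroxisomes. The nuclear receptors PPARα, PPARδ and PPARγ bind fatty acids, pair with a retinoid X receptor on DNA and drive many of these genes, and in the small intestine the absorptive enterocyte is the cell best known for this programme.

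Values are log2 expression per gene, so a difference of 1 is a 2-fold change, and differences are pegtarazimod minus vehicle. Array medians lay between 5.60 and 5.66 and the lower quartiles of the arrays between 3.84 and 3.90, and no member lay below the lower quartile on every array. Correlations between arrays were 0.989 to 0.994 among vehicle replicates, 0.983 to 0.992 among pegtarazimod replicates and 0.973 to 0.991 across the groups. In vehicle and pegtarazimod alike, the leading principal component of the deviations from the group means (33.4% of their variance) put replicates 1 and 2 on one side and replicates 3 to 5 on the other. The labels name no batch. Results are therefore also given within the 2 subsets, from a model with 4 groups that pools the spread.

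With pegtarazimod, transcripts for most steps of mitochondrial fatty acid oxidation were higher. Of the 43 measured members, 20 rose and 1 fell by limma with Benjamini-Hochberg adjustment over all genes at 0.05, a test that 4.89% of all genes passed. Those that rose were 46.5% of the members, against 2.50% of all genes called higher, and the single decrease stood against 2.39% called lower. Among the brighter part of the genes, with the dimmest 50% left out, 25 of the 40 members kept were called higher against 6.89% of those genes. The increases ranged from 1.30-fold for Etfdh to 2.21-fold for Ppara. The median difference was 0.50 over the members and 0.0029 over all genes, and 42 of 43 members had a higher mean with pegtarazimod, against 50.7% of all genes.

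**Figure D1:**
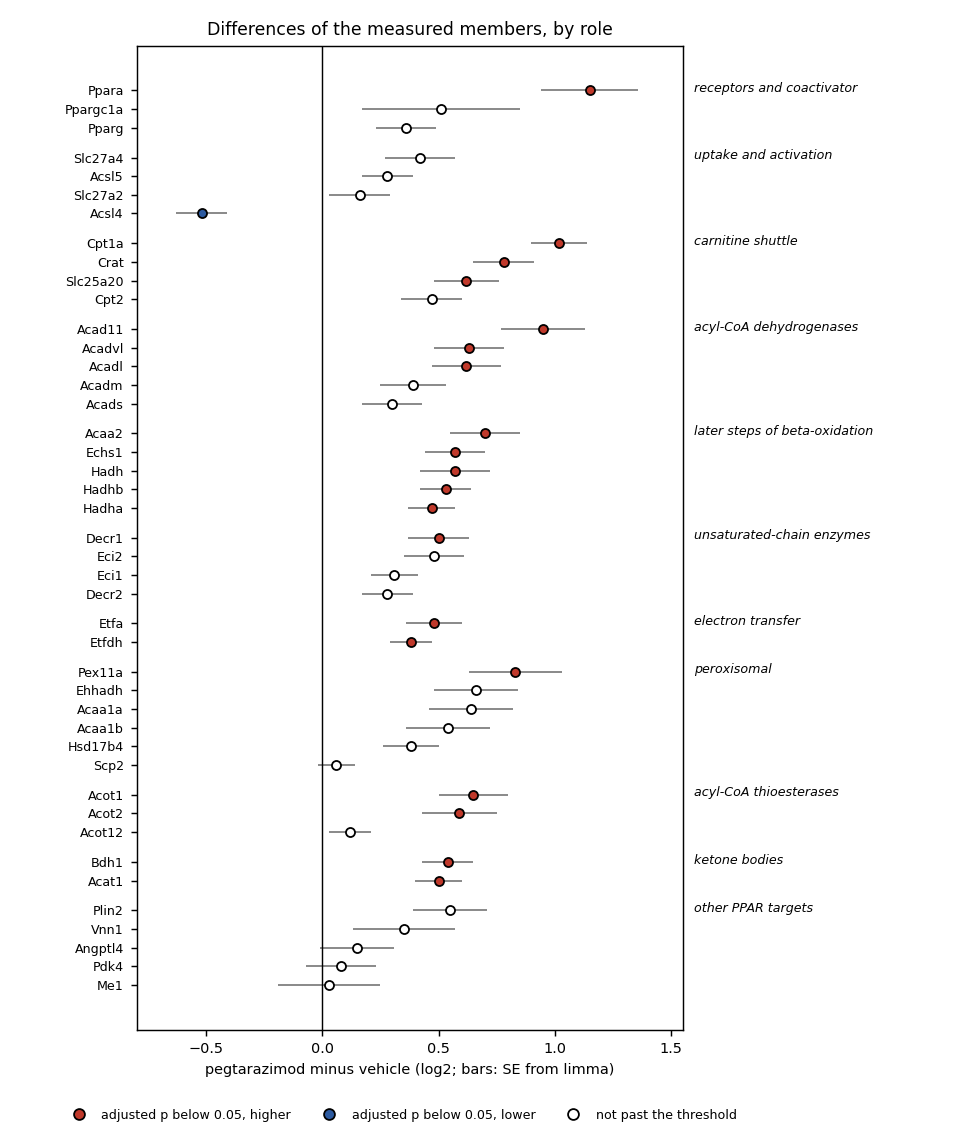
Difference between pegtarazimod and vehicle (log2, x axis) for each of the 43 measured members, grouped by role, with the standard error from limma as bars (5 arrays per group). Filled red points are the 20 members that rose, the filled blue point is Acsl4, which fell, and open points did not pass the test; the enzymes of the later steps are all filled, and the other PPAR targets are all open.

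The number of increases depended on single arrays. It was 9 without vehicle 3, vehicle 5, pegtarazimod 1 or pegtarazimod 2, and 10 without vehicle 4, where the share of all genes called higher dropped as well, to 1.18%, 1.64%, 1.48%, 1.40% and 1.34% in that order. The 9 members that rose in each of the 10 fits with an array left out were Cpt1a, Crat, Ppara, Acad11, Acat1, Hadha, Hadhb, Bdh1 and Acaa2. The groups did not overlap for 15 members on the higher side (34.9%, against 3.35% of all genes) and for 1 on the lower side (against 3.36%). Of the 20 that rose, 14 had groups that did not overlap. The call and the overlap come from the same values, and the share among all genes called higher was not computed.

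**Figure D2:**
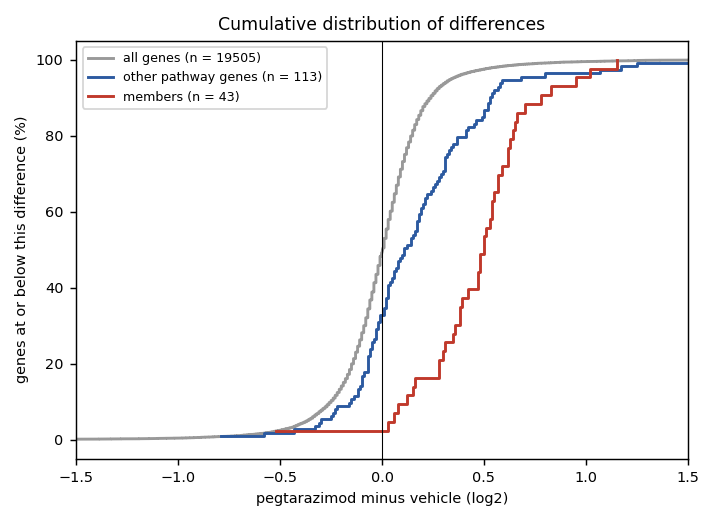
Cumulative share of genes (y axis, %) at or below each difference between pegtarazimod and vehicle (x axis, log2) for the 43 members, 113 other genes of the pathway and all 19505 genes. The curve of the members crosses its middle at a difference of 0.50 and that of the other pathway genes at 0.11, and Fabp1 at 2.47 lies beyond the right edge.

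Among the receptors, Ppara rose. Its transcript encodes PPARα, the receptor best known for inducing fatty acid oxidation. Ppara was 6.90, 6.67, 6.34, 6.36 and 5.90 in vehicle replicates 1 to 5 and 8.04, 8.08, 7.21, 7.26 and 7.32 in pegtarazimod replicates 1 to 5. Every pegtarazimod array lay above every vehicle array, with a gap of 0.32 between the groups. The mean went from 6.43 ± 0.38 to 7.58 ± 0.44 (SD, n = 5 per group), a difference of 1.15 ± 0.21 (SE, adjusted p = 0.00709). Ppara was also higher within replicates 1 and 2 (1.27, adjusted p = 6.36e-04) and within replicates 3 to 5 (1.06, adjusted p = 6.53e-04).

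Pparg, whose product PPARγ is known from adipocytes and colonocytes, did not pass (0.36 ± 0.13, adjusted p = 0.156). It was 7.29, 7.67, 7.16, 7.11 and 7.19 in vehicle and 7.26, 7.58, 7.89, 7.84 and 7.64 in pegtarazimod, in replicate order. The pegtarazimod arrays of replicates 3 to 5 were above their vehicle counterparts, while those of replicates 1 and 2 lay at the vehicle level. Within replicates 3 to 5 Pparg was higher (0.64, adjusted p = 0.0170), and within replicates 1 and 2 it differed by -0.06 (adjusted p = 0.913). The difference between these effects had an unadjusted limma p of 0.00552 and an adjusted p of 0.398.

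The coactivator gene Ppargc1a, whose product PGC-1α partners with PPARs and drives mitochondrial gene expression, spread widely in both groups. It was 7.95, 7.34, 7.05, 7.05 and 6.49 in vehicle and 8.99, 7.82, 7.68, 7.14 and 6.79 in pegtarazimod, in replicate order. The groups overlapped over most of their range, and the difference of 0.51 ± 0.34 did not pass (adjusted p = 0.480). Without pegtarazimod 1, the highest array, the difference was 0.18. With the replicate numbers as a block, a pairing that the labels do not name, Ppargc1a passed. With the subsets as a block it did not.

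**Figure D3:**
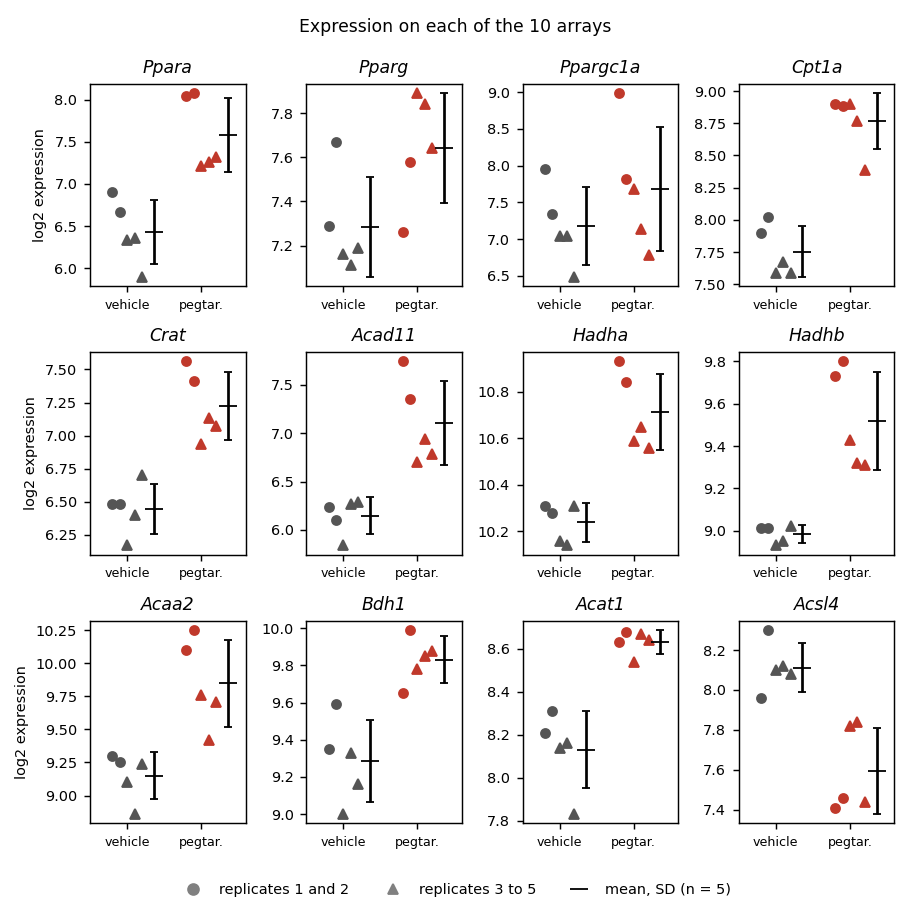
Expression (log2, y axis, scaled per panel) of 12 members on each array, vehicle in grey and pegtarazimod in red, with circles for replicates 1 and 2, triangles for replicates 3 to 5, and the mean with SD (n = 5) at the right of each group. The groups do not overlap for any gene shown except Pparg and Ppargc1a, and pegtarazimod replicates 1 and 2 are the highest arrays for Ppara, Crat, Acad11, Hadha, Hadhb and Acaa2.

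At uptake and activation, the first steps of the pathway, no member rose over the 10 arrays. The fatty acid transport protein genes Slc27a4 and Slc27a2 differed by 0.42 (adjusted p = 0.142) and 0.16 (adjusted p = 0.581), and Acsl5, which encodes a long-chain acyl-CoA synthetase abundant in intestine, by 0.28 (adjusted p = 0.177). Slc27a4 passed within replicates 1 and 2 (0.72, adjusted p = 0.0487) but not within replicates 3 to 5 (0.22, adjusted p = 0.566). Acsl4 was the member that fell. Its product activates arachidonic acid and other polyunsaturated fatty acids and is known for its part in ferroptosis. Acsl4 was 7.96, 8.30, 8.10, 8.12 and 8.08 in vehicle and 7.41, 7.46, 7.82, 7.84 and 7.44 in pegtarazimod, in replicate order. All 5 pegtarazimod arrays lay below the lowest vehicle array, by at least 0.12. It was 1.43-fold lower (from 8.11 ± 0.12 to 7.59 ± 0.22, adjusted p = 0.0170) and passed in all 10 fits with an array left out. Within replicates 3 to 5 the difference was -0.40 and did not pass (adjusted p = 0.144), and within replicates 1 and 2 it was -0.70 (adjusted p = 0.0225).

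The carnitine shuttle carries acyl groups across the inner mitochondrial membrane, and 3 of its 4 genes rose. Cpt1a, the enzyme that forms acylcarnitines at the outer membrane and sets the rate of entry, had the smallest p of all members. Cpt1a was 7.90, 8.02, 7.59, 7.67 and 7.59 in vehicle and 8.90, 8.88, 8.90, 8.77 and 8.39 in pegtarazimod, in replicate order. The lowest pegtarazimod array, replicate 5, was still 0.37 above the highest vehicle array. The mean went from 7.75 ± 0.20 to 8.77 ± 0.22 (SD, n = 5 per group), a 2.02-fold increase (adjusted p = 6.08e-04), and the difference was 0.94 in replicates 1 and 2 and 1.07 in replicates 3 to 5.

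Crat, which encodes carnitine acetyltransferase and buffers acetyl-CoA, was 6.48, 6.48, 6.17, 6.40 and 6.70 in vehicle and 7.56, 7.41, 6.94, 7.13 and 7.07 in pegtarazimod, in replicate order. The groups were 0.24 apart, and Crat rose 1.71-fold (adjusted p = 0.00428). Slc25a20, the translocase that exchanges acylcarnitine for carnitine, was 6.90, 6.63, 6.58, 6.80 and 6.47 in vehicle and 7.68, 7.62, 7.06, 7.08 and 7.04 in pegtarazimod. All pegtarazimod arrays were above the vehicle arrays, with replicates 1 and 2 highest. Slc25a20 rose 1.53-fold (adjusted p = 0.0253), but its call was lost without vehicle 2, 3 or 5 or pegtarazimod 1 or 2, and its adjusted p reached 0.0738 without vehicle 3. Cpt2, which regenerates acyl-CoA inside the mitochondrion, differed by 0.47 (adjusted p = 0.0546) and passed within replicates 1 and 2 (0.57, adjusted p = 0.0250) but not within replicates 3 to 5 (0.40, adjusted p = 0.0713). With the subsets as a block Cpt2 passed (adjusted p = 0.00329).

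Acyl-CoA dehydrogenases carry out the first oxidation of each round, each on chains of a certain length, and 3 of the 5 members rose. Acad11, a family member that acts on long chains, was 6.24, 6.10, 5.84, 6.27 and 6.29 in vehicle and 7.74, 7.35, 6.70, 6.94 and 6.78 in pegtarazimod, in replicate order. Its groups were 0.40 apart, the widest gap among the members, and it rose 1.94-fold (adjusted p = 0.00780). The difference was 1.38 in replicates 1 and 2 and 0.67 in replicates 3 to 5 (unadjusted p of the difference between them 0.00961, adjusted 0.435).

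Acadvl, the membrane-bound enzyme for very long chains, was 8.48, 8.65, 8.26, 8.33 and 8.38 in vehicle and 9.43, 9.38, 8.99, 8.60 and 8.83 in pegtarazimod. Acadl, the enzyme for long chains, was 8.43, 8.68, 8.05, 8.27 and 8.16 in vehicle and 9.20, 9.28, 8.83, 8.79 and 8.58 in pegtarazimod. For both genes the highest vehicle array, replicate 2, overlapped the lowest pegtarazimod array (replicate 4 for Acadvl, replicate 5 for Acadl). Acadvl and Acadl each rose 1.54-fold (adjusted p = 0.0289 and 0.0291). Both calls ended without vehicle 3, 4 or 5 or pegtarazimod 1 or 2, and without vehicle 3 their adjusted p reached 0.0853 and 0.0892. The genes for medium and short chains, Acadm and Acads, differed by 0.39 and 0.30 and did not pass (adjusted p = 0.124 and 0.214), but passed within replicates 1 and 2 (0.57 and 0.58, adjusted p = 0.0214 and 0.0420). Within replicates 3 to 5 neither passed, with differences of 0.27 and 0.11 (adjusted p = 0.238 and 0.750). With the subsets as a block Acadm passed (adjusted p = 0.0139) and Acads did not (adjusted p = 0.125).

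In the later steps of the spiral all 5 measured genes rose, with a median difference of 0.57. Hadha and Hadhb encode the alpha and beta subunits of the mitochondrial trifunctional protein, which performs the last 3 reactions on long chains. Hadha was 10.31, 10.28, 10.16, 10.14 and 10.31 in vehicle and 10.93, 10.84, 10.59, 10.65 and 10.56 in pegtarazimod, in replicate order. Hadhb was 9.01, 9.01, 8.93, 8.95 and 9.02 in vehicle and 9.73, 9.80, 9.43, 9.32 and 9.31 in pegtarazimod. For both subunits the vehicle arrays were close together (SD 0.08 and 0.04) and all pegtarazimod arrays lay above them, with replicates 1 and 2 highest. Hadha rose 1.39-fold and Hadhb 1.45-fold (adjusted p = 0.0122 and 0.0124). Both passed within replicates 1 and 2 (0.59 and 0.76, adjusted p = 0.0139 and 0.00283), and neither did within replicates 3 to 5 (0.40 and 0.39, adjusted p = 0.0566 and 0.0575).

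The 2 subunit genes lie head to head, Hadha on the minus and Hadhb on the plus strand of mouse chromosome 5, with 272 bases between their starts in RefSeq (GRCm38.p6). This stretch is shown because transcription of both subunits, which moved together here, starts from its ends. It spans chr5:30154981-30155252, is 60.3% G or C, and is written on the plus strand, from the base next to the Hadha start to the base next to the Hadhb start.
Hadha to Hadhb: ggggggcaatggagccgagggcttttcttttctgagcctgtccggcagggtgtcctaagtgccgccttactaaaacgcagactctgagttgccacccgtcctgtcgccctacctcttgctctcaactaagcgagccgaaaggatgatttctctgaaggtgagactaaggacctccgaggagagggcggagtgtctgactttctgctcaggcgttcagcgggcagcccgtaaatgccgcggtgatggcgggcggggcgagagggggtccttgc

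Acaa2, the thiolase that releases acetyl-CoA, was 9.30, 9.25, 9.10, 8.86 and 9.24 in vehicle and 10.10, 10.25, 9.76, 9.42 and 9.71 in pegtarazimod, in replicate order. The groups were 0.12 apart, and Acaa2 rose 1.62-fold (adjusted p = 0.0148). Echs1, the short-chain enoyl-CoA hydratase, was 8.61, 8.78, 8.40, 8.28 and 8.41 in vehicle and 9.13, 9.47, 9.05, 8.75 and 8.95 in pegtarazimod. Its groups overlapped narrowly, as vehicle 2 lay 0.03 above pegtarazimod 4, and it rose 1.49-fold (adjusted p = 0.0262). Hadh, the dehydrogenase for medium and short chains, ranged from 10.24 to 10.58 in vehicle and from 10.59 to 11.36 in pegtarazimod and rose 1.48-fold (adjusted p = 0.0463). The call of Echs1 was lost without vehicle 3, 4 or 5 or pegtarazimod 1 or 2 (adjusted p of up to 0.0758, without vehicle 3), and that of Hadh also without vehicle 2 or pegtarazimod 3 (up to 0.124, without vehicle 3) and with quantile normalisation over the tested genes.

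Electrons from the dehydrogenases leave through the electron transfer flavoprotein and its membrane-bound oxidoreductase, and both measured genes rose. Etfa, the alpha subunit, ranged from 8.94 to 9.32 in vehicle and from 9.36 to 9.92 in pegtarazimod and was 1.39-fold higher (adjusted p = 0.0329). Etfdh, the oxidoreductase, ranged from 8.90 to 9.18 and from 9.23 to 9.54 and was 1.30-fold higher (adjusted p = 0.0360). The groups touched for neither gene, although the gaps were only 0.04 and 0.05. The call of Etfa ended when any of 6 arrays was left out (adjusted p of up to 0.0924) and that of Etfdh with any of 7 (up to 0.106, both highest without vehicle 3); both kept it without vehicle 1, pegtarazimod 4 or pegtarazimod 5, and Etfa also without pegtarazimod 3.

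Double bonds need auxiliary enzymes, and of 4 such genes 1 rose. Decr1, the mitochondrial dienoyl-CoA reductase, ranged from 6.09 to 6.46 in vehicle and from 6.38 to 7.08 in pegtarazimod and was 1.41-fold higher (adjusted p = 0.0421). Its call ended when any of 8 arrays was left out, and held without vehicle 1 or pegtarazimod 4; the adjusted p reached 0.121 without vehicle 3. The isomerase genes Eci2 and Eci1 differed by 0.48 and 0.31 (adjusted p = 0.0575 and 0.102), and the peroxisomal reductase gene Decr2 by 0.28 (adjusted p = 0.155). Eci2 passed once the subset was added as a block (adjusted p = 0.00574), and Eci1 within replicates 1 and 2 (0.53, adjusted p = 0.0456) but not within replicates 3 to 5 (0.16, adjusted p = 0.575). Taken over the carnitine shuttle, the dehydrogenases, the later steps and electron transfer, 13 of 16 measured genes rose, against 2.50% of all genes. None fell, and the differences ran from 0.30 to 1.02. This count leaves out uptake and activation, where 0 of 4 measured genes rose and 1 fell, and the auxiliary enzymes (1 of 4).

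In the peroxisomal group 1 of 6 genes rose, with a median difference of 0.59. With replicates 1 and 2 against 3 to 5 as a block, 5 of the 6 rose, against 4.50% of all genes. Ehhadh, Acaa1a, Acaa1b and Hsd17b4 also passed in that fit (adjusted p = 0.00109, 0.00615, 0.0133 and 0.0452). Pex11a, which encodes a membrane protein of peroxisome division and is a known PPARα target, was 6.77, 6.87, 6.24, 6.40 and 6.00 in vehicle and 7.71, 7.66, 6.95, 6.82 and 7.29 in pegtarazimod, in replicate order. Only vehicle 2 and pegtarazimod 4 overlapped, by 0.05, and Pex11a rose 1.78-fold (adjusted p = 0.0284). This call was lost without vehicle 3, 4 or 5 or pegtarazimod 1, 2 or 5, and without vehicle 3 the adjusted p reached 0.0835. The bifunctional enzyme gene Ehhadh differed by 0.66 (adjusted p = 0.0586) and the thiolase genes Acaa1a and Acaa1b by 0.64 and 0.54 (adjusted p = 0.0533 and 0.120). Acaa1a and Acaa1b are close copies, and probes for either may take up signal from the other. All 3 passed within replicates 1 and 2 (Ehhadh 0.84, Acaa1a 0.97, Acaa1b 0.85; adjusted p = 0.00661, 0.00640 and 0.00879). Within replicates 3 to 5 Ehhadh passed (0.53, adjusted p = 0.0396), and Acaa1a and Acaa1b differed by 0.42 and 0.32 (adjusted p = 0.164 and 0.275). Hsd17b4, the second bifunctional enzyme, differed by 0.38 (adjusted p = 0.0976). Scp2, a lipid carrier and thiolase of the peroxisome, differed by 0.06 (adjusted p = 0.775), with all 10 arrays between 7.52 and 7.80.

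Acyl-CoA thioesterases release free fatty acids from acyl-CoA. Acot1, the cytosolic member, was 7.69, 7.73, 7.22, 7.33 and 7.47 in vehicle and 8.52, 8.46, 7.99, 7.88 and 7.81 in pegtarazimod, in replicate order. The groups were 0.08 apart, and Acot1 rose 1.56-fold (adjusted p = 0.0285). Acot2, the mitochondrial member, ranged from 7.93 to 8.73 in vehicle and from 8.62 to 9.05 in pegtarazimod and rose 1.51-fold (adjusted p = 0.0460). The call of Acot1 was lost without vehicle 3, 4 or 5 or pegtarazimod 1 or 2 (adjusted p of up to 0.0872, without vehicle 3), and that of Acot2 also without pegtarazimod 3 or 5 (up to 0.131, without vehicle 3), with quantile normalisation over the tested genes and with array weights. Acot1 and Acot2 are neighbours of similar sequence and may share probe signal. Acot12, an acetyl-CoA thioesterase, was dim (4.33 to 4.75 on the 10 arrays) and differed by 0.12 (adjusted p = 0.545).

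Both ketone body genes rose. Bdh1 encodes the mitochondrial dehydrogenase that interconverts acetoacetate and β-hydroxybutyrate, and Acat1 the thiolase that joins or splits acetoacetyl-CoA. Bdh1 was 9.35, 9.59, 9.00, 9.33 and 9.16 in vehicle and 9.65, 9.99, 9.78, 9.85 and 9.88 in pegtarazimod, in replicate order. Acat1 was 8.21, 8.31, 8.14, 8.16 and 7.83 in vehicle and 8.63, 8.68, 8.54, 8.67 and 8.64 in pegtarazimod. The pegtarazimod arrays of Acat1 lay close together (SD 0.06) and 0.23 above the vehicle arrays, whereas Bdh1 had a gap of 0.06. Bdh1 rose 1.46-fold (adjusted p = 0.0143) and Acat1 1.42-fold (adjusted p = 0.00911). Both passed within replicates 3 to 5 (0.67 and 0.57, adjusted p = 0.0118 and 0.0155). Neither did within replicates 1 and 2, where they differed by 0.35 and 0.40 (adjusted p = 0.265 and 0.141).

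Of the 5 PPAR targets outside these enzymes none passed, and 1 (Plin2) had an unadjusted limma p below 0.05. Pdk4, the kinase that shuts pyruvate out of oxidation, was dim (4.08 to 4.42 in vehicle and 3.93 to 4.83 in pegtarazimod). It differed by 0.08 (adjusted p = 0.825). Angptl4, a secreted inhibitor of lipoprotein lipase, ranged from 6.61 to 6.93 and from 6.49 to 7.51 and differed by 0.15 (adjusted p = 0.705). For both genes the pegtarazimod arrays of replicates 1 and 2 were the highest of all 10, and those of replicates 3 to 5 lay inside the vehicle range or, for replicate 3, below it. The differences of Pdk4 were 0.52 and -0.21 in the 2 subsets and those of Angptl4 0.50 and -0.08, none of which passed (adjusted p = 0.0822, 0.508, 0.104 and 0.837 in that order).

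Plin2, which coats lipid droplets, was 8.34, 8.26, 8.21, 8.32 and 8.14 in vehicle and 9.27, 9.16, 8.71, 8.45 and 8.41 in pegtarazimod, in replicate order. Its groups did not overlap, but the difference of 0.55 ± 0.16 did not pass (adjusted p = 0.0599), with a pegtarazimod SD of 0.40 against 0.08 in vehicle. It passed within replicates 1 and 2 (0.92, adjusted p = 0.00203) and differed by 0.30 within replicates 3 to 5 (adjusted p = 0.219). With the subsets as a block Plin2 passed (adjusted p = 0.00882). Vnn1, the pantetheinase, differed by 0.35 (adjusted p = 0.443), and the malic enzyme gene Me1 by 0.03 (adjusted p = 0.957) with ranges of 6.76 to 7.40 and 6.31 to 7.86.

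**Figure D4:**
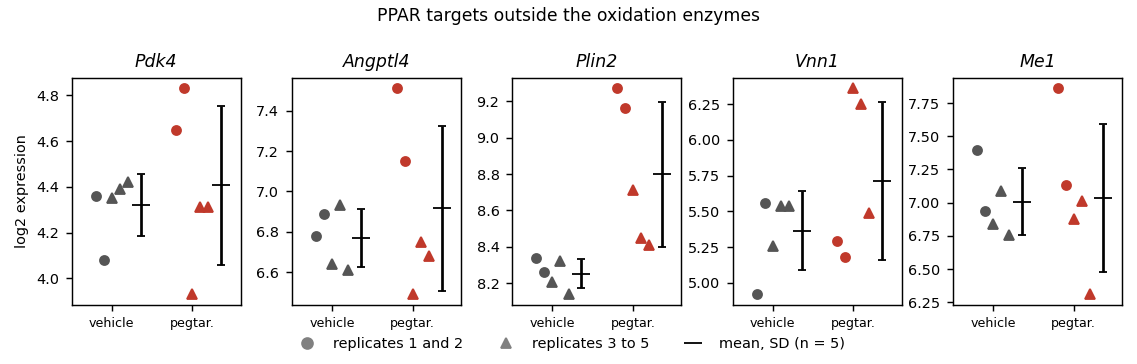
Expression (log2, y axis, scaled per panel) of the 5 PPAR targets outside the oxidation enzymes on each array, vehicle in grey and pegtarazimod in red, with circles for replicates 1 and 2, triangles for replicates 3 to 5, and the mean with SD (n = 5). The groups overlap for Pdk4, Angptl4, Vnn1 and Me1 and are 0.07 apart for Plin2, and the pegtarazimod circles are highest for Pdk4, Angptl4 and Plin2.

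The level of the pathway as a whole also differed between the subsets in each group. The median over the 43 members was 7.90 and 7.87 in vehicle 1 and 2 and 7.39, 7.59 and 7.62 in vehicle 3 to 5. With pegtarazimod it was 8.54 and 8.43 in replicates 1 and 2 and 7.99, 7.88 and 7.81 in replicates 3 to 5. These medians overlapped between the groups over all 10 arrays, as vehicle 1 and 2 lay within the range of pegtarazimod 3 to 5, but did not overlap within either subset. Within replicates 1 and 2, 25 members were higher (58.1%, against 2.93% of all genes) and the median difference was 0.59. Within replicates 3 to 5, 16 were higher (37.2%, against 1.84%) and the median difference was 0.40. The 20 members that rose divided into 11 that passed in each subset, 5 that passed with replicates 1 and 2 but not with the others (Slc25a20, Hadha, Hadhb, Decr1 and Etfa), 3 for which it was the reverse (Acot2, Bdh1 and Acat1), and Etfdh, which passed in neither. These calls share arrays with the comparison that chose the 20. With the subsets as a block over all 10 arrays, 28 members were higher, against 4.50% of all genes: the 20 and Cpt2, Acadm, Eci2, Acaa1a, Acaa1b, Ehhadh, Hsd17b4 and Plin2.

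**Figure D5:**
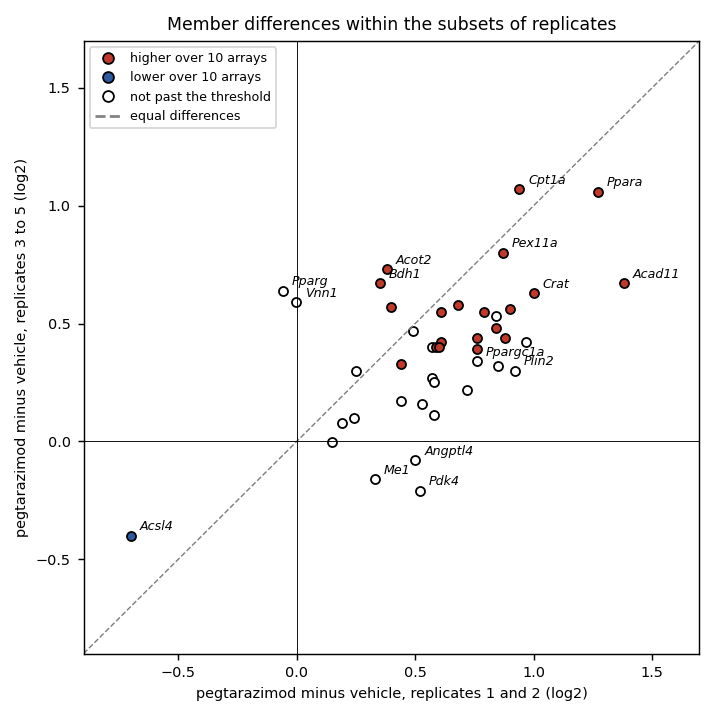
Difference between pegtarazimod and vehicle (log2) of each of the 43 members within replicates 3 to 5 (y axis) against that within replicates 1 and 2 (x axis), filled red or blue where the member rose or fell over all 10 arrays and open where it did not pass, with a dashed line of equal differences. The difference is larger in size in replicates 1 and 2 for 36 members, and Pparg, Vnn1, Acot2 and Bdh1 are among those above the line. The share of all genes was not computed. Replicates 1 and 2 give fewer arrays per group than replicates 3 to 5, which widens the spread of their differences for any gene.

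Whether a member's difference itself differed between the subsets was tested as an interaction. None of the 43 passed by limma with Benjamini-Hochberg adjustment, against 5 of all genes (0.0256%), and 10 (23.3%) had an unadjusted p below 0.05, against 7.65% of all genes. These 10 were Pdk4, Plin2, Pparg, Acad11, Angptl4, Acaa1b, Acads, Hadhb, Acaa1a and Slc25a20. For Pparg the larger difference was in replicates 3 to 5, and for the other 9 in replicates 1 and 2.

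A further 126 genes of fatty acid oxidation, peroxisomes, ketone bodies and the PPAR axis outside the members were read from a list, of which 113 were measured. Of these, 12 rose (10.6%, against 2.50% of all genes) and 3 fell (2.65%, against 2.39%), with a median difference of 0.11. Without pegtarazimod 4 the number that rose was 20, and the share of all genes called higher was 3.09%. The 3 largest increases were those of Fabp1, Cideb and Fabp2. Fabp1, which encodes the liver-type fatty acid binding protein and is a known PPARα target, was 5.55-fold higher (from 6.82 ± 0.65 to 9.29 ± 1.21, adjusted p = 0.00881), and Fabp2, the intestinal form, 2.25-fold (adjusted p = 0.00131). Cideb, a lipid droplet protein of lipoprotein secretion, was 2.38-fold higher (adjusted p = 0.0132).

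Among the peroxisome and thioesterase genes of this list, Pex16, which acts in peroxisome membrane assembly, rose by 0.52 (adjusted p = 0.00474). The thioesterase genes Acot13 and Acot3 rose by 0.54 and 0.53 (adjusted p = 0.00911 and 0.00826), with Acot3 at 3.83 in vehicle, below the lower quartile of the arrays. The thioesterase gene Acot4 rose by 0.80 (adjusted p = 0.0336). Nudt7, Pxmp4 and Acox3 rose by 0.57, 0.50 and 0.35 (adjusted p = 0.0355, 0.0390 and 0.0376). Gcdh, an acyl-CoA dehydrogenase of lysine breakdown, rose by 0.49 (adjusted p = 0.00595), and Aldh9a1, an aldehyde dehydrogenase of carnitine synthesis, by 0.53 (adjusted p = 0.00800). The 3 that fell were Esrrg at -0.79, an orphan receptor that acts with PGC-1α, the fatty acid transporter gene Slc27a1 at -0.58 and Pnpla2 at -0.43, the triglyceride lipase of lipid droplets (adjusted p = 0.0138, 0.0168 and 0.0134). The inducible hydroxylase genes Cyp4a10 and Cyp4a14, known PPARα targets, differed by 0.19 and 0.03 (adjusted p = 0.276 and 0.898), and Cd36, a fatty acid uptake receptor, by 0.42 (adjusted p = 0.474). Cyp4a14 and Cd36 lay below the lower quartile of the arrays in vehicle (3.11 and 2.50), and Cyp4a10 lay at it (3.85).

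Markers of the cell types in the cultures moved with the group as well. Of 10 enterocyte markers 3 rose (Mttp 1.04, Apob 0.66 and Anpep 0.35), and their mean level was 9.25 to 9.70 in vehicle and 9.76 to 10.63 with pegtarazimod. Of 7 crypt stem cell markers 5 fell, among them Ascl2 (-1.80), Sox9 (-1.05) and Rgmb, with a mean level of 9.45 to 9.64 in vehicle and 7.90 to 8.71 with pegtarazimod. Of 5 measured proliferation markers 3 fell (Top2a, Mcm3 and Mcm4), of 6 goblet cell markers 5 rose (Muc2, Clca1 and Fcgbp by 1.37, 0.98 and 0.67), of 5 Paneth cell markers 3 fell (Ang4, Defa17 and Defa24), and of 4 enteroendocrine markers 2 rose (Gcg and Cck). Their part in the differences of the members was not tested. In bulk RNA, more cells of a type and more RNA of a gene per cell cannot be told apart.

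None of the markers of tuft cells or of cells outside the epithelium passed. The mean level of 5 measured leukocyte markers was 4.59 to 4.91 in vehicle and 4.60 to 4.94 with pegtarazimod, that of 5 fibroblast and muscle markers 4.52 to 4.64 and 4.52 to 4.63, and that of 3 adipocyte markers 3.27 to 3.63 and 3.19 to 3.51. Tuft cell markers (4 measured) were at 4.58 to 4.91 and 4.46 to 4.91, endothelial markers (3) at 3.84 to 4.03 and 3.67 to 3.98, and hepatocyte markers (3) at 5.69 to 5.80 and 5.44 to 5.78. Of these lists, 2 adipocyte markers and 1 each of the tuft, fibroblast and muscle, and endothelial markers lay below the lower quartile on every array.

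PPARs bind a direct repeat of the hexamer AGGTCA with 1 base between, and the 250 bases before the gene starts were searched on both strands for 2 copies of AGGTCA in the same orientation with any 1 base between. RefSeq promoter entries (GRCm38.p6) matched 40 of the 47 members, 36 of them measured, with 45 windows in all. No member window held the exact repeat, which 0.0335% of all 32851 windows held. With up to 2 mismatches in the 12 fixed letters it was in 4 member windows (8.89%), against 3.24% of all windows. These are shown with 8 bases on either side, 5′ to 3′ on the strand of the gene, with the match in capitals, since they include 2 members that rose (Echs1 and Etfa) and 2 that did not pass (Plin2 and Acot12).
Etfa: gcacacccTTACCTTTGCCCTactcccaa
Echs1: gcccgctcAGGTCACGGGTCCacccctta
Plin2: agctttcaGGACCCCTGACCTaagtcaga
Acot12: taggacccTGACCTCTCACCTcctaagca

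The Etfa stretch lies at chr9:55512300-55512328 on the minus strand, with the match beginning 77 bases before the start. That of Echs1 lies at chr7:140116484-140116512 on the minus strand, with the match beginning 83 bases before the start, and overlaps the neighbouring gene Paox. The Plin2 stretch lies at chr4:86670264-86670292 on the minus strand, with the match beginning 225 bases before the start. That of Acot12 lies at chr13:91741403-91741431 on the plus strand, with the match beginning 110 bases before the start, and overlaps the gene 4833422C13Rik. Counted from 1 at the 5′ end of the repeat, the spacer included, the Acot12 match read on the opposite strand of the gene holds the single substitution C5G. Etfa, also on the opposite strand, holds T4G and C12A, and Echs1 and Plin2 both hold A8G and A13C, Plin2 on the opposite strand. Of the 16 members that rose and have an entry, the other 14 held no match with up to 2 mismatches in this window.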

How the data were processed

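The authors deposited 1 log2 value per probe set for each of 10 single-colour arrays, 5 per group. These came from the oligo package by RMA, which corrects background, normalises by quantiles and summarises probes, per the submitters' processing notes. Versions and genome build were not given in the sources used here. Quantile normalisation hides a change common to most genes. Of 22203 probe sets, 19572 carried 1 gene symbol in the platform annotation, 0 several, and 2631 were unnamed here and left out. This gave 19505 genes; for 55 with several probe sets the 1 with the highest mean was used. Symbols were checked against the GRCm38.p6 gene table (0 changed).

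From these, limma 3.58.1 (R 4.3.3; lmFit and eBayes, group as the only term) gave the differences, with p adjusted over 19505 genes by Benjamini-Hochberg, threshold 0.05, and the script was tested on simulated data. No detection calls were used. Alternatives were 2 normalisations, 2 filters on dim genes, other variance priors, array weights, blocks, fits within subsets of replicates, the mean over probe sets, and leaving out each array.

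The members and lists were chosen with earlier results of these data known. Every member is named; values on every array are given for the receptors, the coactivator, members with a difference of at least 1 and the 16 called members with the smallest p (Plin2 was added after its values were seen). Of the other pathway genes up to 8 called in each direction, and of the markers up to 3 per set, are named. The called genes Acot4, Nudt7, Pxmp4 and Acox3, and Cyp4a10, Cyp4a14 and Cd36, were added after their values were seen. Plots were made in matplotlib 3.10.9.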

Additional observations from a re-analysis of the deposited data

Results flagged for a closer look

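Of 86 sets of 5 values (43 members in 2 groups), 2 held an array far from the other 4 by Dixon's test, where chance alone flags about 1 set in 20. Cpt1a was 8.39 in pegtarazimod 5, where the nearest other pegtarazimod array was 8.77. Pdk4 was 4.08 in vehicle 2, where the nearest other vehicle array was 4.35.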

How the results depend on the processing

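In the settings that kept all arrays or used 1 subset, the 20 increases among the members came to 16 to 29. The 16 were within replicates 3 to 5 (against 1.84% of all genes) and the 29 with the replicate block (against 4.01%). With 1 array left out they came to 9 to 25, the 25 without pegtarazimod 4 (against 3.09%). The 1 decrease (Acsl4) stayed at 1 when any array was left out, and was 0 within replicates 3 to 5, where the difference kept its sign. The median difference over the members lay between 0.40 and 0.59 in all settings. With 1 array left out, 16 to 25 members had groups that did not overlap (25 without pegtarazimod 4), against 16. Leaving out an array can only keep or raise such a count for any set of genes. The share of all genes was not computed for these fits, so this rise says nothing particular about the members. Of the other pathway genes, 12 rose in the reported fit, against 2.50% of all genes. Without the dimmest 50% of genes 20 rose, against 6.89% of the genes kept. With a replicate block 25 rose (against 4.01%), and with a block for replicates 1 and 2 against 3 to 5, 27 (against 4.50%). The share of all genes thus rose in these fits as well. With 1 array left out the count was 8 to 20. It was 20 without pegtarazimod 4 (against 3.09%). It was 8 without vehicle 3, vehicle 5 or pegtarazimod 2 (against 1.18%, 1.64% and 1.40%). The 3 decreases in this list came to 1 within replicates 1 and 2 and to 3 or 4 with 1 array left out. Over all genes 954 changed, 1606 with a replicate block, 1820 with the block for the subsets, and 437 (without vehicle 3) to 1245 (without pegtarazimod 4) with 1 array left out.

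The sign turned for members that did not pass: Me1 to -0.02 with array weights, -0.16 within replicates 3 to 5, -0.17 without pegtarazimod 1, -0.01 without vehicle 3 and -0.03 without vehicle 5 (range with 1 array left out -0.17 to 0.21); Pdk4 to -0.21 within replicates 3 to 5 and -0.02 without pegtarazimod 2 (range -0.02 to 0.20); Angptl4 to -0.08 and Scp2 to -0.0023 within replicates 3 to 5; and Pparg to -0.06 and Vnn1 to -0.0041 within replicates 1 and 2. The cause was not tested. The labels name no pairing by replicate number, and the reported fit used none. Deviations of same-numbered arrays from their group means correlated at 0.299, 0.310, 0.099, 0.227 and 0.130. In this comparison 8 of 10 arrays correlated best with their own number. With the replicate block 29 members were higher and 1 lower, and the 29 included Slc27a4 and Ppargc1a. Precision is limited by 5 arrays per group, and signal near background cannot be told from it here.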

Other observations

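The extended half-site TCAAGGTCA, the motif of the estrogen-related receptors, was searched in the same 250 bases on both strands. No member window held it exactly, against 0.387% of all windows, and with at most 1 mismatch it was in 3 of 45 member windows (6.67%, in Bdh1, Acsl5 and Acaa1b), against 6.35% of all 32851 windows.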
